A study of Mus musculus with 12 samples.

Results

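Antisense loci are places where RNA is made from the strand opposite to a gene, and here they are all the loci that the deposited tables type as antisense (annotated antisense genes) or novel_antisense (transcripts with no annotated gene of their own). They number 542 of 22306 loci, 119 antisense and 423 novel_antisense. Each was paired with the protein_coding locus, the sense gene, whose interval overlaps it. This gave 267 pairs of 226 antisense loci and 246 sense genes. The other 316 antisense loci overlap no protein_coding locus, and 231 of these overlap no other locus of any type. The RNA came from the hippocampus of C57BL/6 mice given 10 µg of a small interfering RNA (siRNA) into the nose, with the tissue taken after 3 days. There were 3 groups of 4 libraries, labelled siHdac4 (siRNA against the histone deacetylase Hdac4), siBdnf (siRNA against the neurotrophin Bdnf) and siScramble (a scrambled control siRNA). No allele or other agent is named for any group, and the labels give no age. They also leave unsaid whether every library is a separate mouse, so a p-value here reflects only how far these libraries vary, and some of that variation may be technical.

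Antisense transcription is common at mammalian genes. Some antisense RNAs start from the same promoter region as the gene and run away from it, as divergent or head-to-head pairs, while others start inside or beyond the gene and run back through it. Well-studied examples in brain are the antisense RNA that silences the paternal copy of Ube3a in neurons, and Kcnq1ot1, an imprinted RNA that silences neighbouring genes on its own chromosome. Others are known only from the strand that a sequencing library records, which depends on how well the protocol keeps the strands apart.

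The sequences below show the divergent arrangement, because for these pairs the antisense gene and the sense gene are read from a common stretch of DNA. Of the 119 annotated antisense loci, 85 had a RefSeq window running from 250 bases before to 50 bases after the start (build GRCm38.p6), and in 33 of them (38.8%) that window overlapped the window of a gene on the other strand, while 3212 of all 27025 RefSeq genes with a window (11.9%) had such an overlap. The antisense type already places a locus against a gene on the other strand, so a higher share is partly built in. For 27 of the 33 the partner was a protein_coding locus of the tables. For 14 both members reached a mean of at least 1 FPKM, the number of sequenced fragments scaled by transcript length and library size. Only 2 of these 14 pairs have overlapping locus intervals. The rest are not among the pairs made by interval overlap, and their sense gene is the partner by promoter window. The starts of the 14 pairs lay a median of 72.5 bases apart. Each line gives the window of the sense gene, 5′ to 3′ on its own strand, from RefSeq, and capitals mark the bases that also lie in the window of the antisense gene. The 5 were chosen for the lowest within-pair correlation (Nlgn1 and A830092H15Rik), an antisense gene named below (Phf2 and Phf2os1), the highest antisense level relative to the sense gene (Etaa1 and Etaa1os), the highest correlation (Smc2 and Smc2os) and the lowest relative level (Tppp and Gm15912).

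Nlgn1 promoter, chr3:26331860-26332159, minus strand: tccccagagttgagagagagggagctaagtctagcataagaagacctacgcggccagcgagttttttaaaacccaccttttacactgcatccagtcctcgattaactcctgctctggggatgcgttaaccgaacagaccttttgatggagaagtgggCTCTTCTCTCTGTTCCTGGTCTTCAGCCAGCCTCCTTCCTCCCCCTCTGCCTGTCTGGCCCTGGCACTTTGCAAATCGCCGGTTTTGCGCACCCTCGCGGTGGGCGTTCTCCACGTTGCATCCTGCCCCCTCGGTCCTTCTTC

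Phf2 promoter, chr13:48870836-48871135, minus strand: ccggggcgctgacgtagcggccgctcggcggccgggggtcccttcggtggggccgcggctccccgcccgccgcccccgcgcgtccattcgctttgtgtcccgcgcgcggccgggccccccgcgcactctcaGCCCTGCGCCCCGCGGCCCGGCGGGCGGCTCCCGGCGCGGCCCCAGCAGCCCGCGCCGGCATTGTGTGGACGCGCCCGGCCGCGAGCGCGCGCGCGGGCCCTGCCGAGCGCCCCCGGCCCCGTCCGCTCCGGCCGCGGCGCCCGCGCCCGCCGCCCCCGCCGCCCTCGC

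Etaa1 promoter, chr11:17953826-17954125, minus strand: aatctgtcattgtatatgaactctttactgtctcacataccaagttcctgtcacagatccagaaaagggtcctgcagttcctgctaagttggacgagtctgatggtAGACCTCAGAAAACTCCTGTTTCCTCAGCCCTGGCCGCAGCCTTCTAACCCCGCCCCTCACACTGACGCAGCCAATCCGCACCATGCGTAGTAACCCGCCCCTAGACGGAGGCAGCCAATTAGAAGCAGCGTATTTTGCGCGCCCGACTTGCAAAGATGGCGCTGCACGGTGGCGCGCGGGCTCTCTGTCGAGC

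Smc2 promoter, chr4:52438971-52439270, plus strand: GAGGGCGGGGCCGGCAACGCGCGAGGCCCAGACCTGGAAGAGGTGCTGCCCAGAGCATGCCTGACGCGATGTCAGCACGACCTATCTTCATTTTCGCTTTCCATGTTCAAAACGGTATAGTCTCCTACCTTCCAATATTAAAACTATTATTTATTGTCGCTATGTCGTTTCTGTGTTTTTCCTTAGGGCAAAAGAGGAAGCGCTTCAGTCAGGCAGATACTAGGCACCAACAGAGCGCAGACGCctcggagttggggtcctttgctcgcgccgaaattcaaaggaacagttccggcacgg

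Tppp promoter, chr13:74009169-74009468, plus strand: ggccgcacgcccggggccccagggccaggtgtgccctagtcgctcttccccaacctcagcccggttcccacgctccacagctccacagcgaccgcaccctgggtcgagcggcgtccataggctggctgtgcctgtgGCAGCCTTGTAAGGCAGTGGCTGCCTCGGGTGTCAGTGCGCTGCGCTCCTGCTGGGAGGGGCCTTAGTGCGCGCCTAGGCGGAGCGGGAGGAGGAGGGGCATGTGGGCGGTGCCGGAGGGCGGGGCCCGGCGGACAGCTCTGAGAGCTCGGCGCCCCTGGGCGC

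The windows of the 14 divergent sense genes had a median GC content of 64.8%, ranging from 47.7% to 87.0%, while the median over all RefSeq windows was 52.7%. The GC box GGGCGG, searched on both strands, occurred in 11 of the 14 windows and in 35.7% of all 32851 windows. The CCAAT box occurred in 6 of 14 and in 37.4% of all, the letters TATAAA in 2 of 14 and in 13.6% of all, and TGACGTCA in 1 of 14 and in 1.79% of all. These are matches of letters, not sites of binding. The 14 are protein_coding genes with a mean of at least 1 FPKM, while all windows include RefSeq genes of any type and level. The sets thus differ in more than the divergent arrangement, and expressed protein_coding genes without it were not examined.

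In the 14 divergent pairs, most of them not among the pairs made by interval overlap, the antisense gene was below its sense gene every time. Its mean level was a median of 14.2% of the sense level and ranged from 1.06% at Tppp, a tubulin-binding protein of oligodendrocytes, to 71.6% at Etaa1, an activator of the ATR kinase. The Etaa1 value rests on 1 library, and besides it only siHdac4 library 2 reached 1 FPKM of Etaa1os. Etaa1os was at 25.1 FPKM in siBdnf library 3, while the other 3 siBdnf libraries lay between 0.432 and 0.621 FPKM, the siHdac4 libraries at 0.210, 1.23, 0.220 and 0.944 FPKM and the siScramble libraries at 0.547, 0.144, 0.815 and 0.240 FPKM. A830092H15Rik, divergent from the postsynaptic adhesion gene Nlgn1, averaged 3.32 FPKM against 13.4 FPKM for Nlgn1. Over the 12 libraries the levels of the 2 members had a median Pearson r of -0.17, above 0 in 5 of the 14 pairs and between -0.63 (Nlgn1) and 0.43 (Smc2, a condensin subunit). Without the 2 libraries farthest from the median, r was -0.35 at Nlgn1 and 0.04 at Smc2. No permutation p passed adjustment over the 14 pairs (Benjamini-Hochberg, smallest 0.382).

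Most antisense loci were low. Their median level was 1.61 FPKM for antisense and 1.31 FPKM for novel_antisense, while protein_coding loci had a median of 9.58 FPKM. Of the 542, 217 had a mean under 1 FPKM, 50 reached 10 FPKM and 15 reached 100 FPKM. A locus with zeros throughout a group was treated as not estimated. There were 7 of these, 6 of them with a mean under 1 FPKM, and 3 were at 0 in all 12 libraries. This left 324 antisense loci, 77 antisense and 247 novel_antisense, for testing.

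The tables carry no strand, so the strand was read from the order of the locus numbers, which run along each chromosome once per strand. At 11610 of 11614 protein_coding loci this gave the strand of the gene of that name in GENCODE. All 398 novel_antisense loci that could be compared lay on the strand opposite to the gene whose name they carry, and 106 of 107 antisense loci lay on the strand that GENCODE gives for their own name. The pairing by interval is looser than the label. All 267 pairs have identical start and end coordinates, because overlapping loci of both strands were given a common interval, so the interval is not the transcript's own extent. Of the 267 pairs, 187 were on opposite strands and 80 on the same strand, 76 of these with a novel_antisense member. An opposite-strand partner existed for 183 antisense loci, and 43 had same-strand partners only. Sorbs2os with Sorbs2 and Filip1l with Cmss1 are same-strand pairs.

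The libraries were hippocampal by their markers, with 9 of 9 excitatory neuron genes at 1 FPKM or more and summed levels of 2081 to 2212 FPKM in siHdac4, 2332 to 2617 FPKM in siBdnf and 2014 to 2451 FPKM in siScramble. Features of single libraries touch the results. Transcripts of the choroid plexus, a neighbouring tissue, were high in siScramble libraries 1 and 3. Ttr, its main transcript, was at 810 FPKM and 1977 FPKM there, while the siHdac4 libraries ranged from 7.91 to 63.3 FPKM, the siBdnf libraries from 14.3 to 77.1 FPKM and the other siScramble libraries were at 17.9 and 9.99 FPKM. siHdac4 library 2 was the highest of the 12 at 53 of 247 novel_antisense loci (21.5%), at 10 of 77 antisense loci and at 11.3% of 11056 protein_coding loci. siScramble library 1 was the lowest of the 12 at 49 of the 247 novel_antisense loci and at 11 of 77 antisense loci. It was also the lowest at 1000 of 11056 protein_coding loci and at 2355 of all 18339 loci tested. The part of these libraries in the results below was not tested beyond the values without them. The targeted transcripts did not separate the groups. Hdac4 averaged 41.0 ± 5.93 FPKM in libraries labelled siHdac4 and 39.1 ± 5.94 FPKM in siScramble (SD, n = 4 each; exact two-sided permutation p = 0.657; limma adjusted p = 0.864). Bdnf averaged 5.19 ± 0.255 FPKM in libraries labelled siBdnf and 5.37 ± 0.174 FPKM in siScramble (SD, n = 4 each; exact two-sided permutation p = 0.286; limma adjusted p = 0.907). The smallest p that 4 against 4 libraries allow is 0.0286. No antisense locus overlapped Hdac4 or Bdnf, and all directions below refer to libraries by their labels.

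A small set of loci carried most of the antisense signal. The novel_antisense transcript opposite Bcor, which encodes a corepressor of BCL6, was at 1482, 917, 1364 and 1065 FPKM in the siHdac4 libraries, at 787, 853, 741 and 579 FPKM in siBdnf and at 1052, 929, 969.7 and 673 FPKM in siScramble. Every siHdac4 library was above every siBdnf library, and siScramble overlapped both. Bcor itself was far lower, between 4.83 and 10.2 FPKM over the 12 libraries. The antisense transcript of the Cmss1 locus (chr16:57301441-57606901 in the tables' own coordinates) was at 52.4, 22.1, 40.7 and 105 FPKM in siHdac4, at 179, 541, 196 and 264 FPKM in siBdnf and at 25.6, 153, 625 and 296 FPKM in siScramble. All siHdac4 libraries were below all siBdnf libraries, and siScramble overlapped both. The novel_antisense transcript named Filip1l, on the other strand of the same interval, had a higher mean in siHdac4 than in siBdnf. It was at 789, 1057, 700.1 and 424 FPKM in siHdac4, at 289, 467, 335 and 299 FPKM in siBdnf and at 1195, 579, 1634 and 390 FPKM in siScramble. Its siHdac4 and siBdnf libraries overlapped, since siBdnf library 2 was above siHdac4 library 4.

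The rest of the 12 most abundant loci were novel_antisense transcripts named after predicted genes. Gm24543 was the highest, with a mean of 2316 FPKM, and its 4 siBdnf libraries (2726 to 3685 FPKM) were above all 4 siScramble libraries, though the lowest of them was below siHdac4 library 4. Gm24975 was at 1389, 388, 144 and 200.4 FPKM in siHdac4, at 225, 58.5, 42.6 and 20.1 FPKM in siBdnf and at 224, 168, 375 and 243 FPKM in siScramble, so that 3 of 4 siBdnf libraries lay below all others. Gm10800 antisense was listed at 0 in all 4 siBdnf libraries, while siHdac4 libraries ran from 1070 to 2468 FPKM and siScramble libraries from 331 to 5136 FPKM. It counts as not estimated. Gm23432 was the steadiest of the 12, between 295 and 424 FPKM over the 12 libraries.

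**Figure D1:**
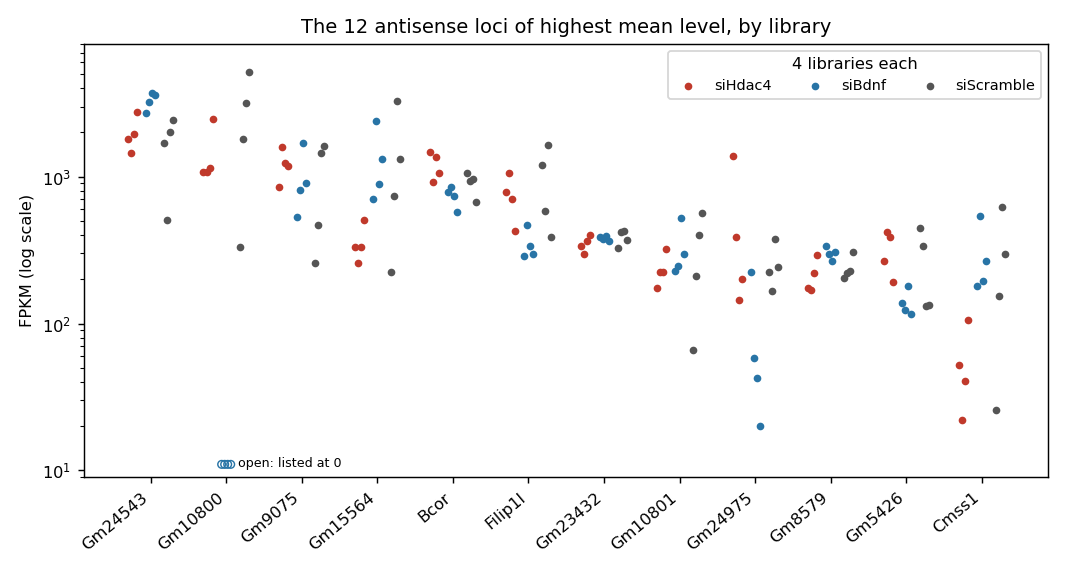
FPKM of the 12 antisense loci of highest mean level, 1 dot per library on a log axis, with 4 libraries each of siHdac4, siBdnf and siScramble; open circles mark libraries listed at 0. Bcor antisense is higher in every siHdac4 library (917 to 1482 FPKM) than in every siBdnf library (579 to 853 FPKM), Cmss1 antisense shows the opposite, and most siScramble ranges overlap those of both groups.

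The abundant antisense loci varied more between libraries of a group than genes of the same level. At 100 FPKM or more the median SD within a group was 47.9% of the mean over 14 antisense loci and 7.57% over 409 protein_coding loci. From 20 to 100 FPKM it was 28.4% over 14 antisense loci and 7.44% over 2867 protein_coding loci, and from 5 to 20 FPKM it was 24.4% over 51 antisense loci and 10.8% over 4992 protein_coding loci. Below that the classes were alike, with 17.7% and 17.4% from 2 to 5 FPKM and 24.8% and 24.7% from 1 to 2 FPKM. These are descriptions of loci and were not tested.

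For 144 antisense loci both members of the pair could be tested, with 1 partner taken per locus. Where a locus had more partners, the 1 taken was the first by name, on either strand. The antisense level was a median of 24.8% of the sense level, with quartiles of 8.85% and 63.9%. This value depends on the filter, and was 49.7% over the 33 pairs with both members at 5 FPKM or more and 17.4% over 223 pairs with no minimum. It was above the sense level in 21 pairs and under 5% of it in 23. Over the 115 pairs on opposite strands the median was 20.6%, and over the 50 pairs on the same strand, counting every partner, it was 33.1%. Antisense and sense levels were nearly unrelated across the opposite-strand pairs (Spearman rho = 0.14, 115 pairs, as a description). The sense level is the denominator of the share, and the filter of 1 FPKM bounds the share from below at low sense genes, so a fall of the share with the sense level is partly built in. The median was 84.4% where the sense gene was under 5 FPKM, 26.1% from 5 to 20 FPKM, 6.72% from 20 to 50 FPKM and 4.35% at 50 FPKM or more.

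**Figure D2:**
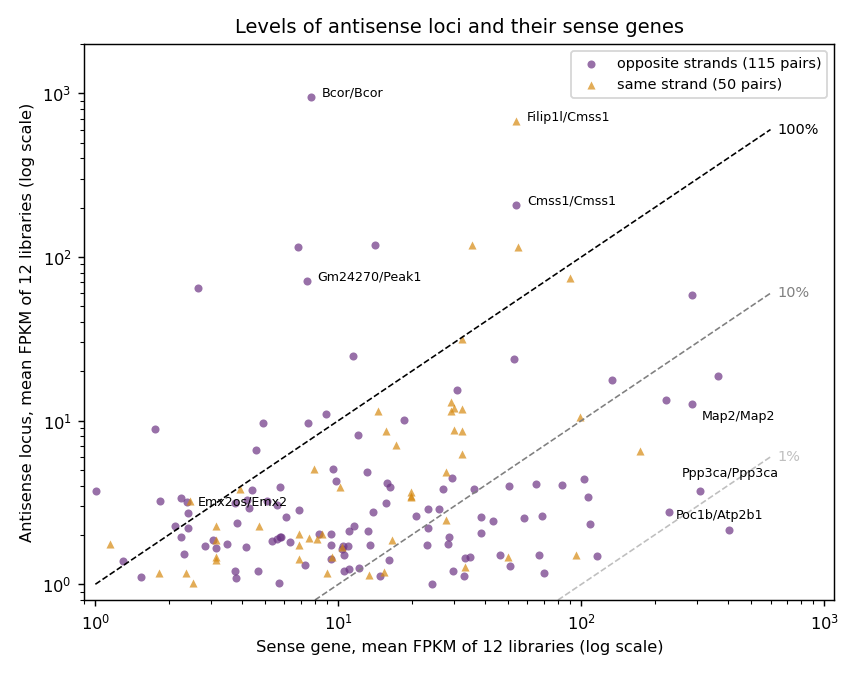
Mean FPKM of the antisense locus (y) against mean FPKM of its sense gene (x) over 12 libraries, on log axes, for 115 pairs on opposite strands (circles) and 50 on the same strand (triangles). Dashed lines mark antisense levels of 100%, 10% and 1% of the sense level; Bcor lies far above the first (951 FPKM antisense, 7.73 FPKM sense) and Atp2b1 below the last (2.14 and 407 FPKM).

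The pairs of highest share were Bcor (12310%), Bche (2440%), Filip1l with Cmss1 (1260%, same strand), Gm24270 with Peak1 (965%), 3110021N24Rik with Cc2d1b (832%) and A830036E02Rik with Krt12 (500.1%). Bche, which encodes butyrylcholinesterase, was itself at only 1.92 to 3.49 FPKM, while its annotated antisense locus was steady between 57.2 and 69.6 FPKM in all 12 libraries. Gm24270, opposite the pseudokinase gene Peak1, ranged from 31.9 to 35.7 FPKM in siHdac4, from 42.0 to 142 FPKM in siBdnf and from 25.2 to 243 FPKM in siScramble. Its siHdac4 libraries all lay below its siBdnf libraries.

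Since each antisense locus had to average 1 FPKM, a very low share can only occur at an abundant sense gene. In the 6 pairs of lowest share, Poc1b antisense was at 0.526% of Atp2b1, a plasma membrane calcium pump, and the antisense transcript of Ppp3ca, the catalytic subunit of calcineurin, at 1.20% of its gene. Gm13375 stood at 1.20% of Arhgap21, and the antisense transcripts of Ahi1, Aff4 and Add1 at 1.28%, 1.67% and 2.16% of their genes. Ppp3ca antisense was at 2.83, 9.41, 4.52 and 4.10 FPKM in siHdac4, at 2.13, 1.96, 2.58 and 2.88 FPKM in siBdnf and at 5.31, 2.04, 3.02 and 3.58 FPKM in siScramble, with the highest value in siHdac4 library 2. The same library held the highest antisense value of the 12 for Ahi1 (3.17 FPKM), Aff4 (2.12 FPKM) and Add1 (3.93 FPKM). Antisense stood at 4.42% of Map2, which encodes a dendritic microtubule protein.

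The share was highest in siHdac4 library 2 except at the lowest sense genes. At the 22 opposite-strand pairs whose sense gene reached 50 FPKM, the median share was 6.14% in that library and between 3.13% and 4.67% in the other 11. It was the highest of the 12 libraries in 14 of the 22 pairs. At the 20 pairs with a sense gene from 20 to 50 FPKM the median was 10.4% in that library and between 5.33% and 8.04% in the other 11, and it was the highest in 12 of the 20. At the 45 pairs with a sense gene from 5 to 20 FPKM the median was 31.1% in that library and between 20.7% and 29.9% in the other 11, and it was the highest in 11 of the 45, with siBdnf library 3 the highest in 10. At the 28 pairs with a sense gene under 5 FPKM it was the highest in 2. The labels name a directional library kit, and how far reads of the sense strand entered the antisense values was not tested.

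**Figure D3:**
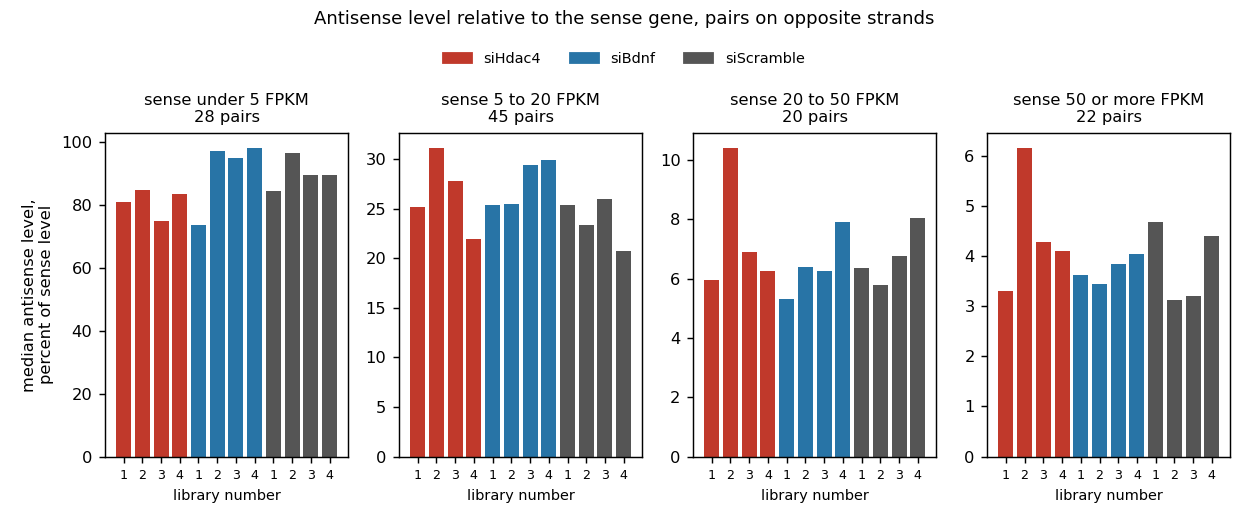
Median antisense level as a percent of the sense level in each library, for opposite-strand pairs split by the mean level of the sense gene (28, 45, 20 and 22 pairs; siHdac4, siBdnf and siScramble libraries 1 to 4). siHdac4 library 2 has the highest median in the 3 panels with sense genes at 5 FPKM or more (31.1%, 10.4% and 6.14%), by a small margin in the first of these, and not where the sense gene is under 5 FPKM.

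The pairs of neuronal genes fell in the same range. Of 32 sense genes that regulate neural development, 4 had an antisense partner and 3 of these pairs were testable. Emx2os, opposite the homeobox gene Emx2, was at 3.00, 2.72, 2.63 and 2.61 FPKM in siHdac4, at 3.26, 2.86, 3.82 and 4.78 FPKM in siBdnf and at 2.67, 2.80, 3.15 and 3.98 FPKM in siScramble, with a mean of 134% of Emx2. Prox1os was at 14.4% of Prox1, a homeobox gene of dentate granule cells, and Mef2c antisense at 2.55% of the transcription factor gene Mef2c. Of 47 synaptic and signalling sense genes, 3 had a partner and all were testable, among them Ppp3ca with a share of 1.20% and the glutamate receptor gene Grm5 with 3.21%. Of 14 imprinted antisense genes listed, Kcnq1ot1 (mean 4.29 FPKM) was testable and Airn (0.378 FPKM) was not. Both Ube3a strands were well expressed, with 23.7 FPKM antisense and 52.6 FPKM sense, a share of 45.1%.

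The main comparisons asked whether either siRNA group changed antisense transcripts. None was called. In siHdac4 against siScramble 0 of the 324 antisense loci passed a Benjamini-Hochberg adjusted p of 0.05 in limma (smallest 0.453), while 1 of 18339 loci of all types was higher (0.00545%) and 0 lower. Before adjustment, a p under 0.05 was reached by 8 antisense loci that were higher and 16 that were lower, or 2.47% and 4.94%, where 4.52% and 5.43% of all loci were. In siBdnf against siScramble 0 passed (smallest adjusted p = 0.495), and 0 of all loci did. Without adjustment 16 were higher and 10 lower, or 4.94% and 3.09%, where 5.72% and 2.9% of all loci were. In siHdac4 against siBdnf 0 passed (smallest adjusted p = 0.213), while 0 of all loci were higher and 1 lower (0.00545%). Without adjustment 12 were higher and 36 lower, or 3.70% and 11.1%, where 5.15% and 10.5% of all loci were. The shares of antisense loci lay near or below those of all loci, so the counts say nothing particular to antisense loci. Of 35 antisense loci with a name ending in os, as or ot, with or without a number, 28 were testable. At an unadjusted p under 0.05, 1 of these was higher and 2 lower (3.57% and 7.14%) in siHdac4 against siScramble, 1 higher and 1 lower (3.57% each) in siBdnf against siScramble, and 1 higher and 5 lower (3.57% and 17.9%) in siHdac4 against siBdnf, to be read against the shares of all loci above. Their median log2 fold changes were -0.06, 0.04 and -0.10. This set by name is not one of separate opposite-strand genes. It also caught the loci named Gas7 and Has1. The loci named Nr6a1os, Sorbs2os and Srrm4os in it lie on the strand of Nr6a1, Sorbs2 and Srrm4. Nr6a1os and Sorbs2os are counted more than once.

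The median log2 fold change of the 324 antisense loci, on the log2(FPKM + 1) scale, was -0.02 in siHdac4 against siScramble, 0.04 in siBdnf against siScramble and -0.04 in siHdac4 against siBdnf. Over all 18339 loci the medians were -0.01, 0.02 and -0.03. The sign of the third antisense median is not settled, since it was 0.00166 with libraries scaled to a common median and -0.00668 with quantile scaling. Among loci of another type, the median log2 deviation of 3303 intronic loci from their mean over libraries lay between -0.12 and -0.02 in the siHdac4 libraries, between 0.04 and 0.19 in siBdnf and between -0.15 and 0.10 in siScramble, and its part in the antisense medians was not tested. Without siHdac4 library 2 the antisense medians were -0.04 against siScramble and -0.06 against siBdnf, and the counts of calls stayed at 0.

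**Figure D4:**
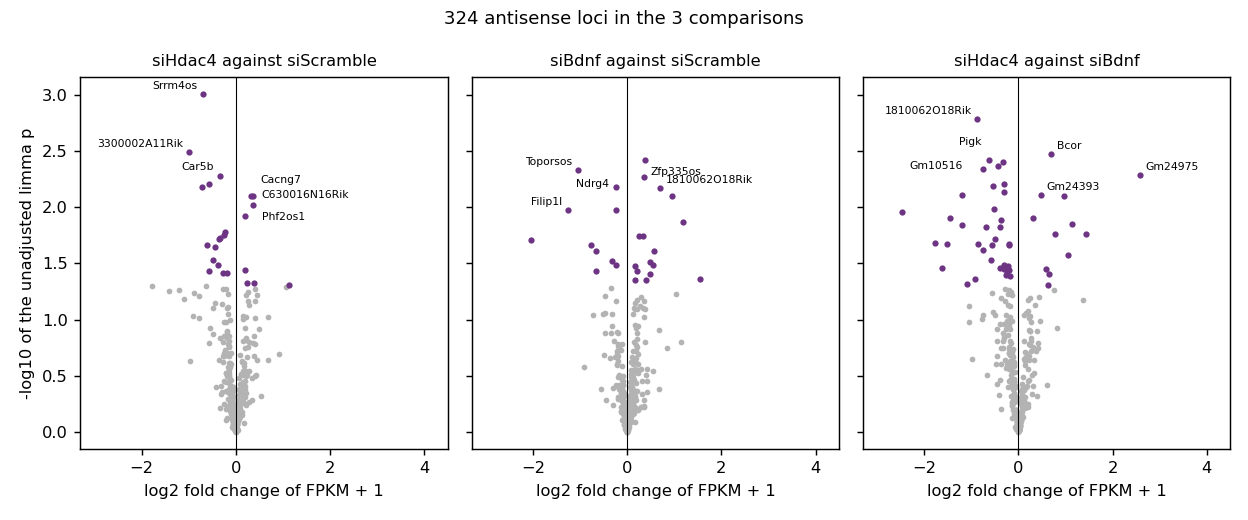
Log2 fold change on the log2(FPKM + 1) scale (x) and -log10 of the unadjusted limma p (y) of 324 antisense loci in the 3 comparisons; purple points have an unadjusted p under 0.05. None passes adjustment, and loci of small p in each direction are named.

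The antisense loci nearest to a call in siHdac4 against siScramble were lower in siHdac4. The locus named Srrm4os lies on the strand of the neural splicing regulator gene Srrm4, so the 2 are a same-strand pair. Srrm4os was at 1.21, 0.388, 0.694 and 0.994 FPKM in siHdac4 and at 1.26, 2.58, 2.09 and 1.90 FPKM in siScramble, with no overlap (log2 fold change -0.70, SE 0.16, limma adjusted p = 0.453). 3300002A11Rik, opposite the forkhead gene Foxn3, was at 12.5, 15.8, 16.7 and 19.6 FPKM in siHdac4 and at 18.96, 32.8, 42.9 and 44.0 FPKM in siScramble (log2 fold change -1.003, SE 0.27; limma adjusted p = 0.454). Its groups overlapped through siScramble library 1. A locus named Car5b and Zrsr2 had a log2 fold change of -0.34. The 3 of smallest p with higher values in siHdac4 were antisense to Cacng7, a subunit of AMPA receptor complexes (0.33), C630016N16Rik (0.36) and Phf2os1, divergent from the histone demethylase gene Phf2 (0.37), and none passed adjustment. C630016N16Rik was at 5.35, 4.41, 5.24 and 4.02 FPKM in siHdac4 and at 3.96, 3.73, 3.01 and 3.25 FPKM in siScramble, with no overlap.

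In siBdnf against siScramble Zfp335os, an annotated antisense gene, was at 2.44, 2.35, 3.13 and 2.67 FPKM in siBdnf and at 1.90, 1.88, 1.64 and 2.01 FPKM in siScramble, with no overlap (log2 fold change 0.35; limma adjusted p = 0.495). 1810062O18Rik was at 10.5, 8.13, 9.54 and 12.4 FPKM in siBdnf and at 6.23, 3.77, 6.08 and 7.61 FPKM in siScramble, also with no overlap (log2 fold change 0.71; limma adjusted p = 0.496). Lower in siBdnf were Toporsos (log2 fold change -1.05), the antisense transcript of Ndrg4 (-0.24) and that named Filip1l (-1.25). Toporsos was at 5.25, 2.09, 3.80 and 2.93 FPKM in siBdnf and at 7.08, 12.2, 11.7 and 3.91 FPKM in siScramble. Its groups overlapped through siScramble library 4.

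In siHdac4 against siBdnf the same 1810062O18Rik was lower, at 5.19, 3.09, 5.82 and 6.61 FPKM in siHdac4 against the siBdnf values above, with no overlap (log2 fold change -0.88, SE 0.22; limma adjusted p = 0.213). This comparison and the preceding one share the siBdnf libraries. The antisense transcript of Pigk, a GPI transamidase subunit, was at 18.7, 20.4, 21.4 and 26.6 FPKM in siHdac4 and at 34.0, 35.1, 28.2 and 39.0 FPKM in siBdnf (log2 fold change -0.63; limma adjusted p = 0.223). Gm10516, opposite Rcor3, had a log2 fold change of -0.33. With higher values in siHdac4 were Bcor antisense (log2 fold change 0.69, SE 0.19; limma adjusted p = 0.223), Gm24975 (2.58, SE 0.75; limma adjusted p = 0.223) and Gm24393 (0.47).

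The sense genes gave no call either. Of the 246 partners 228 could be tested, and 0 passed in siHdac4 against siScramble, siBdnf against siScramble or siHdac4 against siBdnf in limma. Without adjustment 13 were higher and 8 lower in the first, 9 and 8 in the second, and 9 and 15 in the third. That is 5.70% and 3.51%, 3.95% and 3.51%, and 3.95% and 6.58% of the partners, where 5.27% and 5.45%, 4.59% and 3.60%, and 5.95% and 6.98% of 11056 protein_coding loci passed.

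Whether the 2 members of a pair moved apart was tested on the ratio within each of the 144 pairs. These include same-strand pairs, where the ratio does not compare opposite strands. At some loci, as at Zfp335os, a same-strand gene was taken although an opposite-strand partner existed. The counts in this paragraph are over this mixture and are not split by strand, so they do not describe opposite-strand pairs alone. No ratio passed adjustment over the pairs in limma, with a smallest adjusted p of 0.233 in siHdac4 against siScramble, 0.223 in siBdnf against siScramble and 0.128 in siHdac4 against siBdnf (0% called in each). Without adjustment 19, 9 and 20 ratios passed, 8 higher and 11 lower (5.56% and 7.64%) in the first, 7 and 2 (4.86% and 1.39%) in the second and 7 and 13 (4.86% and 9.03%) in the third. For Zc3h4, a zinc finger gene, the ratio had a log2 change of 1.29 in siHdac4 against siScramble (SE 0.35; limma adjusted p = 0.233). Zc3h4 itself was at 19.6, 19.2, 16.8 and 25.4 FPKM in siHdac4 and at 19.8, 45.4, 53.6 and 41.7 FPKM in siScramble, and its antisense transcript at 12.6, 17.7, 21.7 and 12.5 FPKM in siHdac4 and at 13.5, 10.2, 11.4 and 11.5 FPKM in siScramble. The antisense was thus at or above 12.5 FPKM in siHdac4 while 3 of 4 siScramble libraries stayed under it. Without siScramble library 1 there were 8 calls in this comparison, Zc3h4 among them (adjusted p = 0.00825), and without siScramble libraries 1 and 3 there were 4.

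In siHdac4 against siBdnf the ratio of 1810062O18Rik to Usp54, a same-strand pair, changed by -0.91 on the log2 scale (SE 0.21) and that of Cmss1 antisense to Cmss1 by -2.86 (SE 0.75), both with a limma adjusted p of 0.128. Cmss1 sense was at 49.8, 65.4, 64.0 and 54.7 FPKM in siHdac4 and at 44.2, 48.1, 36.4 and 49.0 FPKM in siBdnf, so the antisense and sense values differed in opposite directions. The pairs of Gm21738 (-0.92) and Gm10801 (-1.11) had the same adjusted p. These 4 passed where only the 33 pairs with both members at 5 FPKM or more were tested (adjusted p of 0.0379 to 0.0437). In siBdnf against siScramble the pair of smallest p was again 1810062O18Rik with Usp54 (log2 change 0.84, SE 0.21; limma adjusted p = 0.223).

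Within pairs the 2 levels were weakly related over the 12 libraries. The median Pearson r on the log2(FPKM + 1) scale was 0.16 over the 144 pairs, above 0 in 92 of them, and 0.15 with each group centred on its own mean. It was 0.12 over the 115 opposite-strand pairs and 0.19 over the 50 same-strand pairs. A permutation p under 0.05 was reached by 22 of the 144 pairs, 19 of them with a positive r, and 0 passed adjustment over the 165 pairs computed. The members of a pair share each library and its depth and scaling. Some pairs also share a sense gene, as at Sorbs2 and Nr6a1, so the pairs are not separate from each other. Unpaired loci were not correlated, so the count of 22 has no share to be set against.

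The highest r was that of Galns, a lysosomal sulfatase, with its antisense transcript (r = 0.86, Spearman rho = 0.73, permutation p = 0.00049, Benjamini-Hochberg adjusted p = 0.0627). The antisense was at 10.3, 16.7, 9.12 and 7.42 FPKM in siHdac4, at 9.95, 8.18, 7.86 and 9.09 FPKM in siBdnf and at 11.1, 12.8, 6.49 and 7.28 FPKM in siScramble. The sense gene was at 4.88, 8.64, 4.12 and 3.74 FPKM in siHdac4, at 5.03, 4.27, 3.36 and 4.07 FPKM in siBdnf and at 5.22, 6.44, 4.75 and 4.15 FPKM in siScramble. Both were highest in siHdac4 library 2, and without the 2 libraries farthest from the median r was 0.53, so the value rests largely on those. Sorbs2os with Sorbs2, a same-strand pair, had r = 0.81 (rho = 0.81, permutation p = 0.00076, adjusted p = 0.0627), and 0.82 without 2 libraries. It is 1 of 4 Sorbs2os loci paired with that Sorbs2 locus, with a mean of 11.8 FPKM, and the other 3 had r of 0.74, 0.54 and 0.33. Gm21738 (r = 0.81), Gm24270 with Peak1 (0.76) and Gm10516 with Rcor3 (0.76) followed, with r of 0.68, 0.63 and 0.65 without 2 libraries.

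The lowest r was that of Gfer, a sulfhydryl oxidase of mitochondria, with its antisense transcript (r = -0.70, rho = -0.63, permutation p = 0.0131, adjusted p = 0.217). The antisense ran from 9.12 to 11.9 FPKM in siHdac4, from 9.33 to 10.2 FPKM in siBdnf and from 6.72 to 10.6 FPKM in siScramble, above its sense gene (6.81 to 8.84 FPKM over the 12 libraries) in 11 of the 12 libraries. Without the 2 farthest libraries r was -0.28. 1700047A11Rik with Hook3 (r = -0.65, same strand) and Fbxw2 (r = -0.60) came next, and 0 of the 5 lowest pairs passed adjustment.

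**Figure D5:**
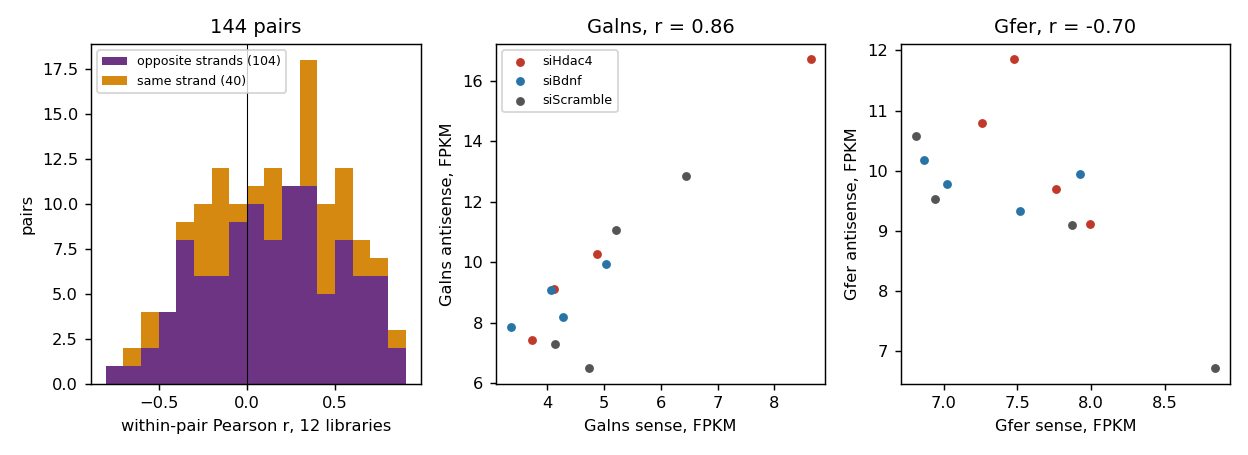
Left, Pearson r between antisense and sense log2(FPKM + 1) over 12 libraries for 144 pairs (104 on opposite and 40 on the same strand). Middle and right, FPKM of antisense (y) against sense (x) by library for the pairs of highest (Galns, 0.86) and lowest r (Gfer, -0.70); in Galns siHdac4 library 2 is the highest point on both axes.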

How the data were processed

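RNA of 12 hippocampal libraries in 3 groups of 4 was measured. TRIzol extraction, poly-A selection and a directional kit were used, per the labels' protocols. TopHat2 2.0.9 is named in the submitters' processing notes, next to Cufflinks and Cuffdiff. Neither a genome build nor an annotation or a strand setting is given in the sources used here. The authors deposited 2 tables of FPKM values per locus and library, with identical siScramble columns, and a log2 fold change, p-value and FDR for each comparison. Those last columns, deposited by the authors as log2 and p-value, were read but not used. Read totals are not part of the tables, so the depth is unknown.

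Antisense loci were to be paired with the protein_coding locus of longest overlap, ties going to the shorter locus and then by name. Because the intervals of every pair are identical, overlap and length always tied. The partner was thus picked by name order at the 29 loci with 2 partners and the 6 with 3. At some of these a same-strand gene was taken over an opposite-strand one, as at Zfp335os (Pcif1, not Zfp335) and Far2os1 (Ergic2, not Far2). Since FPKM is no count, the test was limma 3.58.1 in R 4.3.3, with a variance trend, on log2(FPKM + 1) of all 18339 loci of any type with a mean of at least 1 FPKM and not listed at 0 through a group. All 12 libraries entered 1 fit without covariates, and a Benjamini-Hochberg adjusted p under 0.05 counted as a call. Fold changes on this scale understate the change of low loci. Pair ratios were differences of log2(FPKM + 1) in the same model, adjusted over the pairs. Within-pair correlations had 100000 permutations of the libraries. The fit was tested on simulated data. Python 3.11.15, numpy 2.4.6, pandas 2.3.3, scipy 1.17.1 and matplotlib 3.10.9 were used.

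The members, gene lists and the rule for names were chosen with earlier results of these data known. Named were the 12 antisense loci of highest level, the 6 pairs of highest and of lowest share, and, per comparison, the 3 loci of smallest p in each direction and the 4 pair ratios of smallest p. The 5 pairs of highest and lowest r and testable members of the lists were named too. Some loci that this rule picks are not reported here. The set by name held antisense loci whose name ends in os, as or ot with an optional number, which also took in Gas7 and Has1. The promoter pairs, the split by sense level, Map2, Ube3a and the library counts were chosen after their values were seen. Alternatives were another pseudocount (0.1), other filters (0.1, 5 or none), library weights, median or quantile scaling, a replicate block, loci at 0 kept, a fit of 2 groups alone, other partners, and each library left out. Pairs on opposite strands only, and the fit without siScramble libraries 1 and 3, were added after seeing the data.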

Additional observations from a re-analysis of the deposited data

Results flagged for a closer look

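Of 40 loci examined by library, 7 of 120 groups of 4 held a library set far apart from the other 3, where chance gives about 1 in 20. No explanation was weighed. Etaa1os was at 25.1 FPKM in siBdnf library 3, with 0.432 to 0.621 FPKM in the others. Gm10800 antisense was at 2468 FPKM in siHdac4 library 4, with 1070.1 to 1140.0 FPKM in the others. Cacng7 antisense was at 3.28 FPKM in siScramble library 2 (others 2.51 to 2.54 FPKM), and Srrm4os at 1.93 FPKM in siBdnf library 2 (others 1.48 to 1.496 FPKM). Low values were those of C630016N16Rik, 3.38 FPKM in siBdnf library 4 (others 4.39 to 4.57 FPKM), Gm10516, 6.25 FPKM in siHdac4 library 2 (others 7.49 to 7.69 FPKM), and Bcor sense, 5.49 FPKM in siScramble library 4 (others 9.15 to 9.85 FPKM).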

How the results depend on the processing

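Antisense calls stayed at 0 except for 2 in siHdac4 against siBdnf with the 2 groups alone (RP23-446D4.9 and a Sorbs2os locus), 1 in siHdac4 against siScramble without siScramble libraries 1 and 3 (the same Sorbs2os locus), and 1 in siBdnf against siScramble and 1 in siHdac4 against siBdnf with loci at 0 through a group kept (Gm10800, not estimated in siBdnf; its sense gene gave 1 call in each too, and its pair ratio 1 in each). Sense calls without 1 library ran from 0 to 1 in siHdac4 against siScramble (Zc3h4, without siScramble library 1) and were 0 otherwise. Pair ratio calls without 1 library ran from 0 to 8 in siHdac4 against siScramble, from 0 to 1 in siBdnf against siScramble (Gm7580 with Slco3a1, without siScramble library 3) and from 0 to 1 in siHdac4 against siBdnf (Cmss1, without siScramble library 1). Without siScramble libraries 1 and 3 they were 4, 1 and 6. In siHdac4 against siBdnf there were 4 with a filter of 5 FPKM, 4 with the 2 groups alone and 2 with library weights. The replicate block gave 1 ratio call in siBdnf against siScramble and 1 in siHdac4 against siBdnf, both 1810062O18Rik with Usp54, and moved no other count. Same-numbered libraries correlated between -0.08 and 0.24, and not every library correlated best with its own number. Libraries numbered 4 gave 0.24, 0.19 and 0.13, and the other numbers -0.08 to 0.13. A pairing by number was thus not established, and the main fit did not use it. Antisense medians moved to -0.0862 in siHdac4 against siScramble and to -0.142 in siHdac4 against siBdnf with a filter of 5 FPKM, and in the second to 0.00166 with median and -0.00668 with quantile scaling, so that its sign is not settled. The median share of 24.8% became 17.4% with a filter of 0.1 FPKM or none, 49.7% with a filter of 5 FPKM, 28.6% for annotated antisense loci and 20.6% for opposite strands. The causes were not tested beyond the fewer or other loci and libraries each setting uses. Antisense loci wholly inside their partner were the same pairs, since all intervals are identical. The median r stayed within its jackknife SE of 0.078. That SE is built from the values with each library left out, so for those settings the outcome was nearly fixed beforehand. The 18 fold changes of antisense loci picked by the naming rule kept their sign and stayed uncalled in all 406 refits that gave them. Weights, the block and the 2 groups alone were not run for the correlation. Depth is unknown. By the median SD within a group over the mean, protein_coding loci varied most from 1 to 2 FPKM (24.7%). Antisense loci varied most at 100 FPKM or more (47.9%).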

Other observations

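2 loci that were called under an alternative were chosen after their values were seen. Sorbs2os here is another of the 4 novel_antisense loci of that name (mean 6.21 FPKM, r with Sorbs2 of 0.54), on the strand of Sorbs2, an adaptor protein gene (chr8:45507381-45830670 in the tables' own coordinates). It was at 3.63, 4.20, 3.82 and 3.92 FPKM in siHdac4, at 5.72, 7.73, 8.22 and 7.60 FPKM in siBdnf and at 4.25, 9.33, 5.53 and 10.6 FPKM in siScramble. Every siHdac4 library was below every library of the other groups, siScramble library 1 being the nearest. The log2 fold change was -0.76 in siHdac4 against siBdnf (SE 0.22, limma adjusted p = 0.223) and -0.71 in siHdac4 against siScramble (SE 0.22, limma adjusted p = 0.471). RP23-446D4.9, on the strand of the calcium channel subunit gene Cacnb2 and opposite Nsun6, was at 83.6, 45.1, 53.4 and 84.1 FPKM in siHdac4, at 141, 156, 128 and 176 FPKM in siBdnf and at 49.6, 87.3, 179 and 193 FPKM in siScramble. Its siHdac4 libraries all lay below its siBdnf libraries (log2 fold change -1.20, SE 0.38, limma adjusted p = 0.226), and siScramble overlapped both.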
